A study of Mus musculus with 12 samples.

Results

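The effect of deleting Yap and Taz was measured in hepatocytes of livers that had not been injured, by comparing the 3 Yap/Taz KO libraries with the 3 ctrl libraries. These are 6 of the 12 libraries of the study; they were chosen by their labels alone and fitted without the others, and the comparison was repeated without ctrl replicate 1. The study profiled sorted mouse hepatocytes with and without acute liver injury by carbon tetrachloride (CCl4, a hepatotoxin), in 4 groups of 3. Every mouse, controls included, carried floxed Yap and Taz alleles (Yapflox/flox; Tazflox/flox). The knockout mice received AAV8.TBG.PI.Cre.rBG, an adeno-associated virus that expresses Cre recombinase from the hepatocyte promoter TBG, at 5e11 genome copies by tail vein 3 weeks before collection. For the controls the labels give no treatment and name no control vector, so an effect of the vector and an effect of the deletion cannot be told apart. The sources used here give neither age nor sex of the mice. Whether the samples of a group are separate animals is not stated in the labels; the p-values measure only how these samples vary, and that spread may be technical.

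YAP (gene Yap1) and TAZ (gene Wwtr1) are transcriptional coactivators at the end of the Hippo pathway. The LATS kinases, which act downstream of the MST kinases, phosphorylate YAP and TAZ and hold them in the cytoplasm. When the kinases are inactive, YAP and TAZ enter the nucleus and bind TEAD factors at target genes such as Ccn1, Ccn2 and Ankrd1. In the adult liver the pathway is known for its control of organ size, and YAP is known to be low in hepatocytes and higher in bile duct cells.

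Each library was made from RNA of 500000 sorted cells with a kit that reads a tag near the 3′ end of polyadenylated transcripts. Total counts per library lay between 1617761 (ctrl replicate 3) and 2677624 (Yap/Taz KO replicate 2), and 11281 to 13988 genes had at least 1 count. Values below are CPM, counts divided by the library total after scaling with TMM factors. The markers that define hepatocytes were high in every library: 8 of them summed to between 109450 and 147280 CPM, and Alb (albumin) alone stood between 52988 and 84626 CPM. Markers of other liver cells were also present, and ctrl replicate 1 stood apart in them. It was the highest of the 6 libraries for 16 of 16 macrophage and Kupffer cell markers, 16 of 17 sinusoidal endothelial markers and 9 of 10 erythroid markers. The macrophage markers summed to 3333 CPM in ctrl replicate 1, to 585 and 752 CPM in the other controls, and to 1387, 292 and 665 CPM in the knockouts. Endothelial markers summed to 2911 CPM in ctrl replicate 1 and to between 678 and 1687 CPM elsewhere. Pancreatic acinar markers summed to 1614 CPM in ctrl replicate 1 and 5270 CPM in Yap/Taz KO replicate 1, against 17.0 to 109 CPM in the other libraries. The median Spearman correlation of ctrl replicate 1 with the other 5 libraries was 0.852, the lowest of the 6. That of ctrl replicate 3 was next at 0.868, and the highest was 0.909. By single pairs, ctrl replicate 1 correlated best with Yap/Taz KO replicate 1 (0.907), and at 0.852 and 0.840 with ctrl replicates 2 and 3. In ctrl replicate 3, 251 of the genes tested lay at least 4-fold below all other 5 libraries. The number was 77 in ctrl replicate 2, 72 in Yap/Taz KO replicate 2 and 6 to 28 in the rest, with 6 in ctrl replicate 1. Ctrl replicate 3 also had the lowest total count, and the part of depth in this number was not tested. At least 4-fold above all others lay 14 genes in ctrl replicate 1 and 0 to 6 in each other library. The biological coefficient of variation over the 6 libraries was 0.372, and 0.340 without ctrl replicate 1. The gene lists below are given with and without this library; the part of other cell types in any result was not tested.

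**Figure D1:**
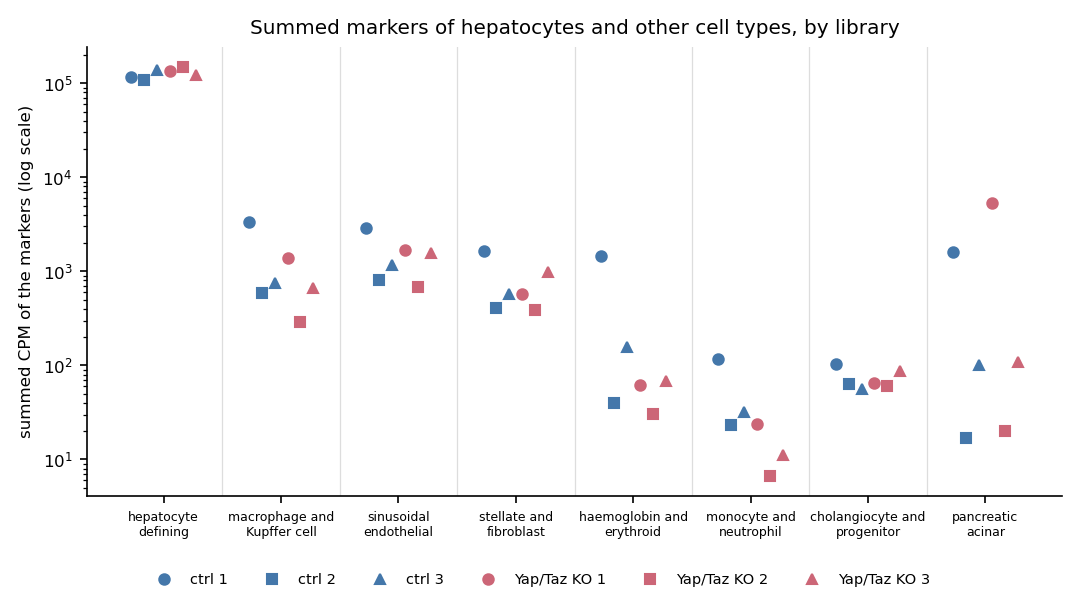
Summed CPM (log scale) of marker genes of hepatocytes and of 7 other cell types in each of the 6 uninjured libraries; circles, squares and triangles are replicates 1, 2 and 3. Hepatocyte markers sit between 109450 and 147280 CPM in all libraries, ctrl replicate 1 is highest for macrophage and endothelial markers, and acinar markers reach 1614 and 5270 CPM in ctrl replicate 1 and Yap/Taz KO replicate 1.

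Both targeted transcripts were lower in the knockout libraries. Yap1 (GRCm38 chr9:7931999-8004596, minus strand) stood at 35.7, 55.1 and 62.2 CPM in ctrl replicates 1 to 3 and at 19.4, 8.36 and 12.96 CPM in Yap/Taz KO replicates 1 to 3. All knockout libraries were below all controls, with knockout and control means of 13.6 ± 5.53 and 51.0 ± 13.7 CPM (SD, n = 3 each). Yap1 had a log2 fold change of -1.91 (SE 0.37, 95% interval -2.72 to -1.10). It did not pass in edgeR's quasi-likelihood test (Benjamini-Hochberg adjusted p = 0.539; unadjusted p = 0.000261) and passed in DESeq2 (adjusted p = 0.0227). Over all alternatives run its adjusted p lay between 0.000955 (edgeR without a filter on low counts) and 0.999754 (edgeR without Yap/Taz KO replicate 2), and its log2 fold change between -2.44 and -1.64. Without ctrl replicate 1 it was -2.11 (edgeR adjusted p = 0.267). The highest adjusted p, 0.999754, was the same for all 56 genes followed over these alternatives, so it is not particular to any of them.

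Wwtr1 (GRCm38 chr3:57455649-57575910, minus strand) stood at 51.1, 21.5 and 30.2 CPM in the controls and at 13.7, 8.77 and 15.9 CPM in the knockouts. The groups did not overlap, and the highest value was that of ctrl replicate 1, the library with the most endothelial and stellate cell transcripts. Its log2 fold change was -1.42 (SE 0.40; edgeR unadjusted p = 0.0042, adjusted p = 0.894; DESeq2 adjusted p = 0.419), and smaller without ctrl replicate 1 (95% interval -1.92 to -0.08; edgeR unadjusted p = 0.0349). The adjusted p of Wwtr1 over the alternatives ranged from 0.134 to 0.999754. The labels do not say which exons are floxed, so a 3′ tag gives the level of the remaining transcript and does not check the deletion or the loss of protein. In these bulk samples, fewer cells with a transcript and less of it in each cell cannot be told apart.

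Of the DNA-binding partners, Tead1 stood at 9.48, 18.8 and 0.616 CPM in the controls and 11.8, 18.0 and 16.3 CPM in the knockouts, with overlap. Tead2, Tead3 and Tead4 stayed below 4 CPM in every library and were not tested, as was the cofactor gene Vgll3. Vgll4, whose product competes with YAP for TEAD binding, differed by 0.24 (SE 0.30). The upstream arm of the pathway showed no difference past the spread. Of 26 Hippo kinases and adaptors 23 were tested, 0 passed in edgeR at an adjusted p of 0.05 or at an unadjusted p of 0.05, and none was among the genes called by DESeq2. Their median log2 fold change was -0.01, beside -0.04 for all 9037 genes tested. The median without ctrl replicate 1 was 0.09, beside 0.01 for all genes, and 1 of the 23 was higher at an unadjusted p of 0.05. Stk3 and Stk4, which encode the MST kinases, differed by 0.23 (SE 0.43) and 0.22 (SE 0.33). Lats1 and Lats2, which encode the kinases that phosphorylate YAP and TAZ, differed by 0.19 (SE 0.41) and 0.11 (SE 0.44). For Nf2, the upstream activator merlin, the difference was 0.27 (SE 0.45). With these standard errors, differences of these sizes were not detectable.

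Among the classical YAP/TAZ targets, Ccn1 parted the groups, and Ccn2, Ankrd1 and Amotl2 did not. Of the 14 listed targets tested, 1 (Ccn1) was lower in the knockout without overlap, as were 5.61% of all genes. The promoters of Ccn1, Amotl2 and Ankrd1 are shown because these targets carry the core TEAD motif in the 300 bases searched and yet gave different readouts here. The sequences are from RefSeq (GRCm38.p6), from 250 bases before to 50 after the start, on the strand of the gene. Capitals mark GGAATG or its reverse complement CATTCC, searched on both strands. Ccn1 lies at chr3:145649936-145650235 on the minus strand, Amotl2 at chr9:102717554-102717853 on the plus strand and Ankrd1 at chr19:36119795-36120094 on the minus strand.
Ccn1: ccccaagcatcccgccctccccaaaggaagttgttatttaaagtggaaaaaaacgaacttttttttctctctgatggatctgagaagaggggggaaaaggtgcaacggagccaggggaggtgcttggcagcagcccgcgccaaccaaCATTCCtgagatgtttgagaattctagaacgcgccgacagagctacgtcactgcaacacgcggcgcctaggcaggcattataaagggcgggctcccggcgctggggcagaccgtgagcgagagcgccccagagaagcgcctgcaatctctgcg
Amotl2: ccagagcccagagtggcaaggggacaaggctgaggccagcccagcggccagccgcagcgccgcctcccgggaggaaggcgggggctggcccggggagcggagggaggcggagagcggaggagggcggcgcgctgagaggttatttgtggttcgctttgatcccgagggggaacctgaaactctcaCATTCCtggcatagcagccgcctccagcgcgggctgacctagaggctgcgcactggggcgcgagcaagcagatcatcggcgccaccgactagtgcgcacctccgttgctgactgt
Ankrd1: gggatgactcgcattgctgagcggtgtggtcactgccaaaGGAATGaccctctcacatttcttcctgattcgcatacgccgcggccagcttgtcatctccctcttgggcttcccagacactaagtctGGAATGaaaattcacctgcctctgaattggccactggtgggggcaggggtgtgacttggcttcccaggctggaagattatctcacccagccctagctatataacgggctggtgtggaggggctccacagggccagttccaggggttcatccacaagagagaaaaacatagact

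The motif begins 103 bases before the start in Ccn1, 65 before it in Amotl2, and 210 and 123 before it in Ankrd1. Of the 22 listed YAP/TAZ targets 15 matched the promoter table, and 7 of their 17 windows (41.2%) held the motif, as did 4817 of all 32851 windows of the same length (14.7%). Among the 13 genes that DESeq2 called in the uninjured comparison 11 matched, and 3 of their 15 windows (20.0%) held it, those of Yap1 and Slc25a25. A match describes the letters in the window and does not show binding.

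Ccn1, which encodes a secreted matrix protein of the CCN family, stood at 10.9, 21.5 and 17.9 CPM in the controls and at 8.51, 5.85 and 1.85 CPM in the knockouts. The groups did not overlap, but the lowest control (30 counts) and the highest knockout library (18 counts), both replicate 1, lay close together. The log2 fold change was -1.64 (SE 0.57, 95% interval -2.89 to -0.39; edgeR unadjusted p = 0.0142, adjusted p = 0.944), and -1.88 without ctrl replicate 1. Its adjusted p over the alternatives of edgeR, DESeq2 and limma-voom was at least 0.435. Ccn2, its family member and the most used YAP/TAZ readout, had 84.6 CPM in ctrl replicate 1 and 0.448 and 1.85 CPM in the other controls, against 3.78, 6.69 and 0.741 CPM in the knockouts. Its level in ctrl therefore rests on that 1 library, and it did not pass the filter on low counts. Ankrd1, which encodes a nuclear ankyrin repeat protein, lay between 0 and 4.44 CPM in all 6 libraries and was not tested either.

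Amotl2, a target whose product binds YAP in turn, stood at 24.1, 18.8 and 11.7 CPM in the controls and 10.9, 15.04 and 19.3 CPM in the knockouts. The groups overlapped (log2 fold change -0.28, SE 0.40), and the sign turned to 0.16 when ctrl replicate 1 and Yap/Taz KO replicate 1 were left out together. Of the 22 listed targets 14 passed the filter on low counts. Among those, 2 had an unadjusted p under 0.05 in edgeR, both lower in the knockout, where 2.89% of all genes tested were lower at that level. The second was Igfbp3, an IGF binding protein gene that non-parenchymal liver cells express. It stood at 43.0 CPM in ctrl replicate 1, 7.62 and 7.39 CPM in the other controls and 5.43 to 8.03 CPM in the knockouts, and its log2 fold change went from -1.52 to -0.13 without that library. Of the 14 tested targets 13 had a negative log2 fold change, as did 4806 of all 9037 genes. The median was -0.33, beside -0.04 for all genes. Without ctrl replicate 1, 8 of the 14 were negative, as were 4544 of all 9178 genes. The median was then -0.03, beside 0.01 for all genes. At an unadjusted p of 0.05 in edgeR 1 target was lower in that fit, beside 3.73% of all genes. Axl, a receptor kinase gene, went the same way, from -1.15 to -0.12; it stood at 79.9 CPM in ctrl replicate 1 and at most 29.3 CPM elsewhere.

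**Figure D2:**
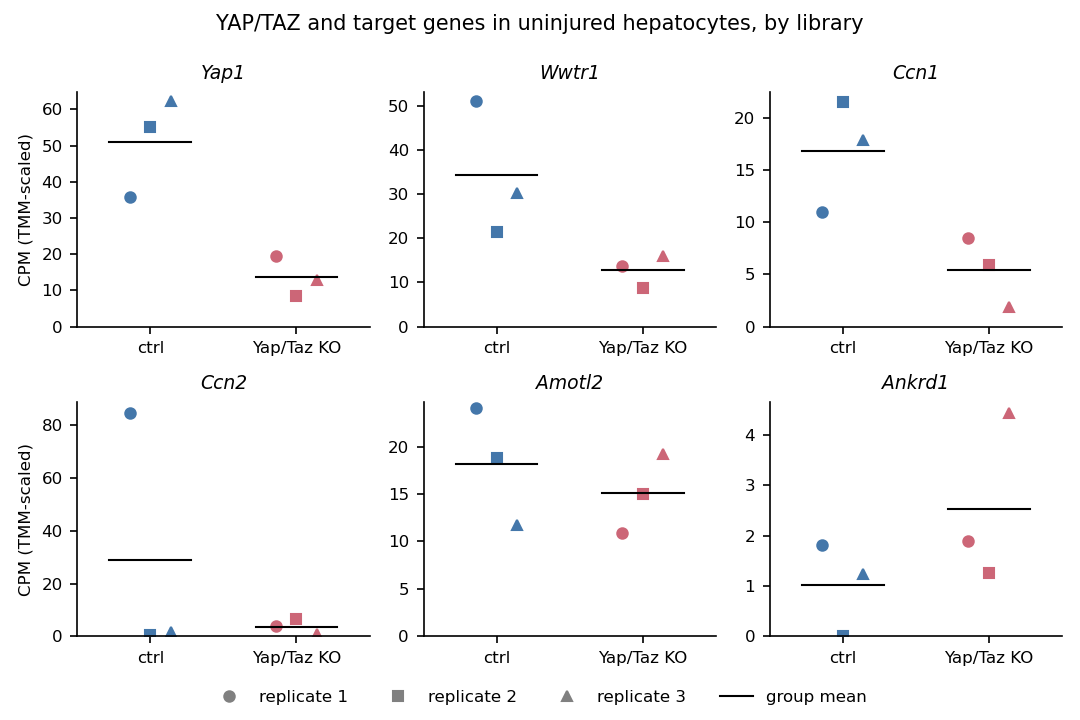
CPM of Yap1, Wwtr1 and 4 YAP/TAZ targets in each uninjured library, on linear axes from 0; symbols are replicates and lines are group means. Yap1, Wwtr1 and Ccn1 part the groups, Ccn2 is at 84.6 CPM in 1 control only, Amotl2 overlaps, and Ankrd1 stays at or below 4.44 CPM.

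Across all genes the comparison called very little. Of 9037 genes tested in edgeR 0 passed at an adjusted p of 0.05 (0%), and the smallest adjusted p was 0.539. At an unadjusted p of 0.05 there were 472 genes (5.22%), 211 higher (2.33%) and 261 lower (2.89%) in the knockout. DESeq2 called 13 genes (0.144%), 6 higher (0.0665%) and 7 lower (0.0776%), and edgeR without the filter on low counts called 27 of 16827 (0.16%). Both limma-voom fits called 0, with 473 genes at an unadjusted p of 0.05, and 436 with sample quality weights. In 1012 genes (11.2%) the 2 groups did not overlap, 505 with the knockout higher (5.59%) and 507 lower (5.61%). Without ctrl replicate 1, edgeR called 1 of 9178 genes (0.0109%), 643 had an unadjusted p under 0.05 (7.01%), and DESeq2 called 16 of the 3828 genes that it gave an adjusted p (0.418%). Of the 472 genes 322 (68.2%) were among those 643 (50.1% of them), and 9 of the 13 DESeq2 genes were among the 16.

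The median standard error of a log2 fold change was 0.391. The 95% interval lay within 2-fold either way for 3182 of the 9037 genes and within 4-fold for 7584, so for most genes a 2-fold difference was not excluded. Scaled by library totals, the median log2 fold change of all genes moved from -0.04 to -0.15, and 20.5% of the genes at an unadjusted p of 0.05 were higher in the knockout in place of 44.7%. The balance of directions thus depended on the scaling, and changes are given relative to the bulk of genes. The share of counts in the mitochondrial ribosomal RNAs also parted the groups, though narrowly. It stood at 6.39, 4.79 and 2.99% in the controls and 12.2, 8.82 and 6.50% in the knockouts. In CPM mt-Rnr2 parted the groups too, but mt-Rnr1 overlapped, at 18077 in ctrl replicate 1 and 16456 in Yap/Taz KO replicate 3. The part of this share in other results was not tested.

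**Figure D3:**
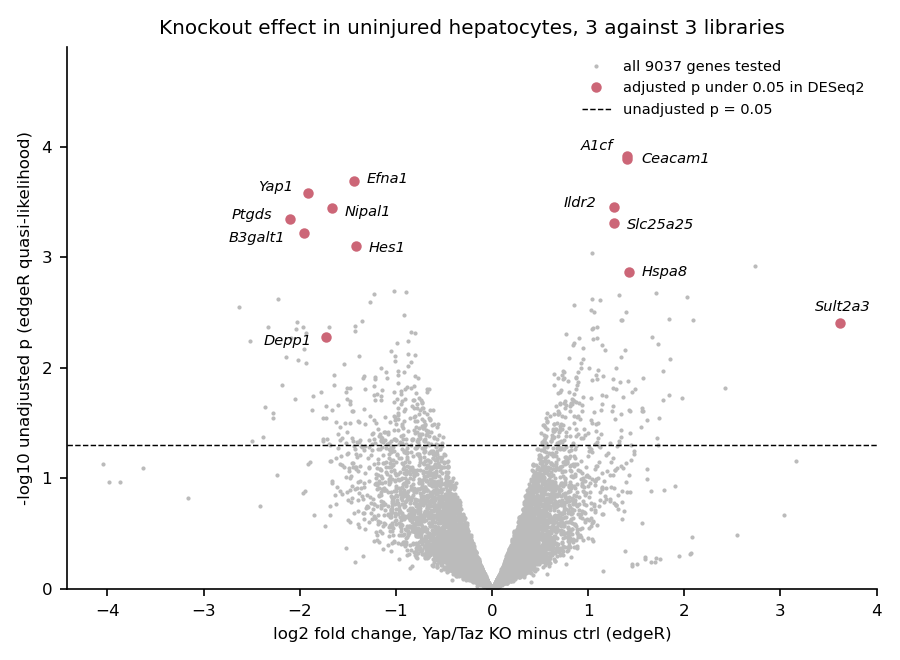
Log2 fold change (Yap/Taz KO minus ctrl) against -log10 of the unadjusted edgeR p for all genes tested; the dashed line marks the unadjusted threshold of 0.05 and the coloured points are the 13 genes that DESeq2 called. Yap1 lies among the 7 called lower, and no gene passed after adjustment in edgeR.

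The 7 genes that DESeq2 called lower were Yap1, Efna1, Nipal1, Ptgds, B3galt1, Hes1 and Depp1, and none passed in edgeR with the filter on low counts. Efna1, which encodes the membrane ligand ephrin-A1, stood at 54.3, 63.6 and 62.8 CPM in the controls and 23.6, 19.2 and 24.1 CPM in the knockouts. Both groups were tight and far apart: the means were 60.3 ± 5.14 and 22.3 ± 2.68 CPM (SD over 3 libraries), a log2 fold change of -1.43 (SE 0.27). Its adjusted p was 0.0292 in DESeq2 and 0.539 in edgeR, and ranged from 0.0228 to 0.999754 over the alternatives. Here and below, that upper value is the one shared by all genes followed. Hes1, a transcriptional repressor downstream of Notch, stood at 160, 218 and 125 CPM in the controls and 39.2, 82.7 and 65.9 CPM in the knockouts, without overlap (-1.42, SE 0.32; DESeq2 adjusted p = 0.0376, edgeR 0.718, range 0.00344 to 0.999754). Depp1, a target of FOXO factors induced by fasting, stood at 280, 360 and 582 CPM against 161, 48.9 and 160 CPM. The control values varied widely and stayed above the knockouts (-1.72, SE 0.47; DESeq2 adjusted p = 0.0339, edgeR 0.894, range 3.46e-05 to 0.999754).

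Nipal1, a magnesium transporter gene, stood at 146, 59.6 and 129 CPM in the controls and 35.0, 40.9 and 29.3 CPM in the knockouts (-1.67, SE 0.34; DESeq2 adjusted p = 0.0231, edgeR 0.539, range 0.000558 to 0.999754). The other DESeq2 calls were Ptgds, prostaglandin D synthase, at 31.7, 46.2 and 15.4 against 7.56, 7.52 and 6.67 CPM, and B3galt1, a galactosyltransferase gene, at 37.9, 21.1 and 49.3 against 6.62, 7.52 and 13.3 CPM. Neither overlapped between groups, with log2 fold changes of -2.10 (SE 0.44) and -1.95 (SE 0.42). The rule on large falls at 50 CPM or more also took Pfn1, the actin-binding profilin, and Atp5md, a subunit of ATP synthase. Their log2 fold changes were both -1.51, but the adjusted p in DESeq2 was 0.581 for Pfn1 and 0.578 for Atp5md, and in edgeR 0.944 and 0.948. In both, Yap/Taz KO replicate 3 was far below the other knockouts, at 4.81 against 41.1 and 17.5 CPM for Pfn1 and at 6.67 against 42.5 and 43.5 CPM for Atp5md.

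The 6 genes that DESeq2 called higher were A1cf, Ceacam1, Ildr2, Slc25a25, Hspa8 and Sult2a3. A1cf, the RNA-binding cofactor of apolipoprotein B editing, stood at 59.8, 49.3 and 42.5 CPM in the controls and 131, 156 and 115 CPM in the knockouts. Every knockout library was above every control (log2 fold change 1.40, SE 0.25; DESeq2 adjusted p = 0.0123, edgeR 0.539, range 0.00344 to 0.999754). Ceacam1, an adhesion receptor that promotes insulin clearance in hepatocytes, stood at 84.2, 57.8 and 82.5 against 227, 193 and 173 CPM (1.40, SE 0.25; DESeq2 adjusted p = 0.0123, edgeR 0.539, range 0.00255 to 0.999754). Ildr2, a membrane protein gene linked to hepatic lipid handling, stood at 54.3, 92.8 and 74.5 against 173, 172 and 188 CPM (1.27, SE 0.26). Slc25a25, a mitochondrial ATP-magnesium carrier, stood at 58.4, 64.1 and 50.5 against 187, 112 and 120 CPM (1.27, SE 0.27). In A1cf, Ceacam1, Ildr2 and Slc25a25 the groups did not overlap.

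Hspa8, the constitutive HSP70 chaperone, stood at 126, 146 and 93.0 CPM in the controls and 176, 456 and 352 CPM in the knockouts (1.43, SE 0.34; DESeq2 adjusted p = 0.0376, edgeR 0.894, range 0.000955 to 0.999754). Yap/Taz KO replicate 1 was nearest to the controls. Sult2a3, a sulfotransferase gene, had 1, 9 and 0 counts in the controls and 57, 59 and 17 in the knockouts; its reads may be shared with near-identical paralogs, and its log2 fold change of 3.62 (SE 0.96) depends on the counts near 0. Among genes at 50 CPM or more the rule on large rises also took Sephs2, which makes selenophosphate, at 18.6, 7.17 and 24.6 against 45.4, 76.0 and 41.5 CPM (1.70, SE 0.43; DESeq2 adjusted p = 0.132, edgeR 0.894). It took Sult1e1, oestrogen sulfotransferase, as well, whose value rested on Yap/Taz KO replicate 2: that library had 141 CPM, the other knockouts 8.98 and 10.7 and the controls 2.24 to 8.75. Its log2 fold change was 3.16 with that library and 0.74 without it.

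**Figure D4:**
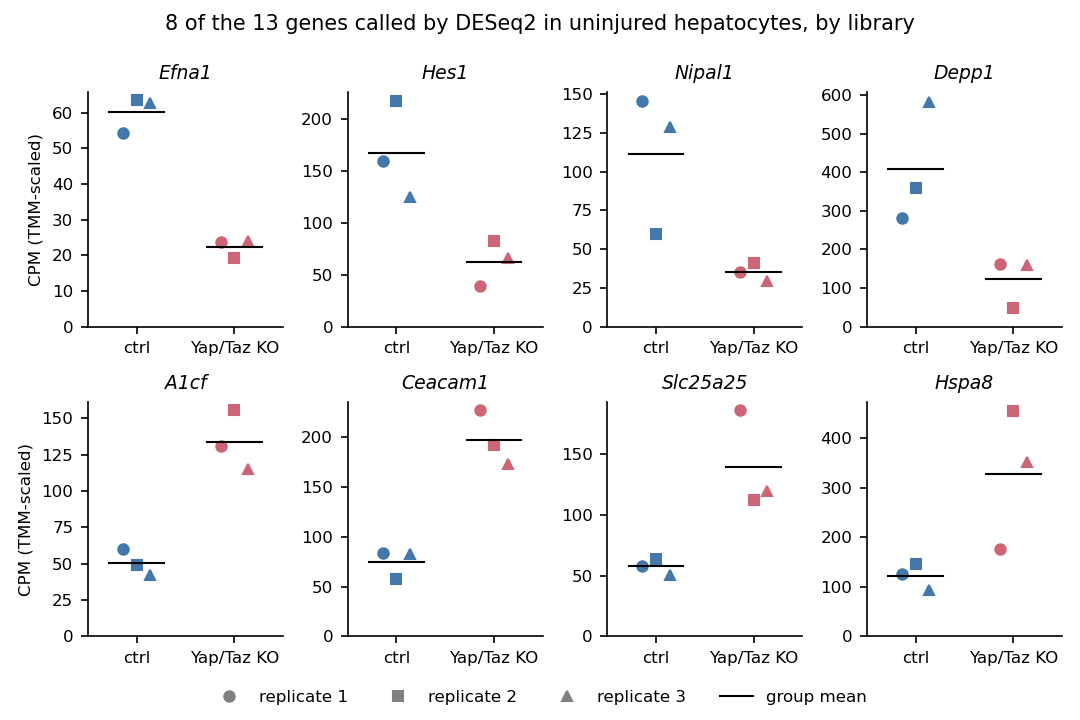
CPM in each uninjured library for 8 of the 13 genes that DESeq2 called, on linear axes from 0; symbols are replicates and lines are group means. Efna1, Hes1, Nipal1 and Depp1 are lower and A1cf, Ceacam1, Slc25a25 and Hspa8 higher in all 3 Yap/Taz KO libraries than in any ctrl library.

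Leaving out ctrl replicate 1 brought 1 gene past the threshold in edgeR and 7 genes past it in DESeq2 that had not passed with all 6 libraries. Mup17, a major urinary protein gene of the liver, stood at 63.1, 302 and 673 CPM in the controls and 59.5, 74.4 and 67.0 CPM in the knockouts. Ctrl replicate 1 thus lay with the knockouts. The log2 fold change was -2.37 with it (edgeR adjusted p = 0.944) and -2.86 without it (edgeR adjusted p = 0.0122; over the alternatives that keep ctrl replicate 1 up to 0.999754). The call ended when ctrl replicate 3 or any 1 of the knockout libraries was left out as well, where edgeR called 0 genes; without Yap/Taz KO replicate 1 the adjusted p of Mup17 was 0.0706. Reads of this family can be shared among near-identical copies. The 7 genes, chosen after their values were seen, were Cdkn1a, Cyp3a11, Cyp4a14, Ndufa4, Scd1, mt-Rnr1 and Mup17 itself in DESeq2. Cdkn1a, the p53 target p21, stood at 114, 23.7 and 17.2 against 77.0, 158 and 71.1 CPM, and its log2 fold change went from 0.97 to 2.31 without that library. Cyp3a11, the main CYP3A enzyme of drug oxidation, stood at 1084, 2352 and 3271 against 1281, 869 and 853 CPM and went from -1.16 to -1.49. Scd1, stearoyl-CoA desaturase, stood at 4714, 2218 and 2846 against 5213, 6728 and 5964 CPM and went from 0.87 to 1.24.

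No member of the hepatocyte lists passed in edgeR after adjustment. At an unadjusted p of 0.05, 2.33% of all genes were higher and 2.89% lower, and without ctrl replicate 1 3.28% and 3.73%. Of 27 hepatocyte identity genes 25 were tested, 3 were higher and 0 lower at an unadjusted edgeR p of 0.05, and the median log2 fold change was 0.14 (0.14 also without ctrl replicate 1, where 1 of 26 was higher and 0 lower). Apob, the structural protein of VLDL, stood at 377, 1179 and 451 CPM against 1289, 1645 and 1503 CPM (1.14, SE 0.40; unadjusted p = 0.0178). The xenobiotic receptor gene Nr1i2 differed by 0.70 (SE 0.25). Pericentral genes, those of the zone around the central vein, had a median of 0.29 over 21 tested, beside -0.04 for all genes. Of the 21, 17 had a positive log2 fold change, as did 4231 of all 9037 genes, and 2 were higher and 1 lower at that level. The median without ctrl replicate 1 was 0.09 over 22, beside 0.01 for all genes, with 3 higher and 1 lower. In that fit 15 of the 22 were positive, as were 4634 of all 9178 genes. Lhpp, a histidine phosphatase gene, stood at 11.7, 22.4 and 22.8 against 28.8, 47.6 and 50.7 CPM and Gstm3, a glutathione transferase, at 47.4, 68.6 and 83.1 against 97.8, 176 and 133 CPM. Periportal genes had a median of 0.01 over 21 (-0.11 when scaled by library totals), with 1 higher and 1 lower, and 2 higher and 0 lower without ctrl replicate 1. Ass1 of the urea cycle was the higher one named (0.69, SE 0.27), with Yap/Taz KO replicate 2 at 858 CPM and the other 5 libraries between 360 and 520 CPM.

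In the lipid, bile acid and drug metabolism lists, too, no member passed in edgeR after adjustment. In cholesterol synthesis 2 of 24 tested genes were higher and 1 lower at an unadjusted p of 0.05, where 2.33% and 2.89% of all genes were, and the counts were 2 and 1 without ctrl replicate 1 as well. The higher ones named were Cyp51, lanosterol demethylase (0.65, SE 0.22), and Fdps, farnesyl diphosphate synthase (0.75, SE 0.25). Among 23 genes of fatty acid oxidation 2 were higher and 0 lower, but without ctrl replicate 1 1 of 24 was higher and 3 were lower, beside 3.28% and 3.73% of all genes. Ppara, the receptor that induces these genes, stood at 89.4, 150 and 121 CPM in the controls and 159, 320 and 207 CPM in the knockouts, just clear of each other (0.93, SE 0.30; edgeR unadjusted p = 0.0101, adjusted p = 0.944; DESeq2 adjusted p = 0.578). The medians of these lists (0.10 in both) and of fatty acid synthesis (0.11) turned to -0.02, -0.02 and -0.01 when scaled by library totals. With ctrl replicate 1 left out they were 0.02, 0.0019 and 0.19. Bile acid genes had a median of 0.12 over 23, with 2 higher and 0 lower, Abcc2 (the canalicular exporter MRP2, 0.63, SE 0.27) and Cyp39a1, an oxysterol hydroxylase whose highest value was 66.0 CPM in Yap/Taz KO replicate 2. The balance of the bile acid list turned without ctrl replicate 1: 1 was higher and 4 were lower, with a median of 0.0043. Conjugating enzymes had 3 higher and 1 lower of 29 (median 0.24), and without that library 4 higher and 5 lower (median 0.15). Drug-metabolising cytochromes had 2 higher and 1 lower of 25 (median 0.19), and without it 1 higher and 2 lower (median -0.0060).

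The lists of sex-biased liver genes had medians of opposite sign. Of 14 male-biased genes tested 11 had a negative log2 fold change, as did 4806 of all 9037 genes, and the median was -0.85. Of 20 female-biased genes 15 had a positive one, as did 4231 of all genes, and the median was 0.41. The median of all genes was -0.04, and 0.01 without ctrl replicate 1. Without ctrl replicate 1 the medians were -1.16 and 0.65, and 7 of the 14 male-biased genes were lower at an unadjusted p of 0.05, where 3.73% of all genes were. With all 6 libraries 1 male-biased gene was lower (Gstp1, a glutathione transferase, -1.23, SE 0.54) and 2 female-biased ones were higher, where 2.89% and 2.33% of all genes were. In the fit without ctrl replicate 1 3 female-biased genes were higher. The 2 higher with all libraries were the steroid hydroxylases Cyp2b13, at 113, 73.5 and 103 against 190, 276 and 135 CPM, and Cyp2b9, at 210, 279 and 207 against 366, 337 and 316 CPM, which share much of their sequence. In each the groups did not overlap, with log2 fold changes of 1.05 (SE 0.30) and 0.55 (SE 0.23). Male-biased Mup3 stood at 3796 CPM in ctrl replicate 3 and between 848 and 1263 CPM in the other 5 libraries. Reads of the Mup family can be shared among near-identical copies, so its members may not be separate observations. The Y-linked genes Ddx3y, Uty, Eif2s3y and Kdm5d had no counts in any of the 6 libraries, and Xist lay between 27.1 and 166 CPM in all of them.

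Most interferon response and antigen presentation genes had lower levels in the knockout, and few passed at an unadjusted p. Of 30 tested (of 34 listed) 26 had a negative log2 fold change, as did 4806 of all 9037 genes, and the median was -0.55. At an unadjusted p of 0.05 5 were lower and 0 higher, where 2.89% and 2.33% of all genes were. Without ctrl replicate 1 the median was -0.35 and 4 were lower, beside 3.73% of all genes. Irf9, the DNA-binding subunit of the interferon-activated complex ISGF3, stood at 66.0, 90.1 and 77.6 CPM in the controls and 44.9, 50.6 and 32.2 CPM in the knockouts, without overlap (-0.87, SE 0.27; edgeR unadjusted p = 0.0075, adjusted p = 0.944; DESeq2 adjusted p = 0.662). Several others were low in Yap/Taz KO replicates 2 and 3 and not in replicate 1. Ifit1, an interferon-induced RNA sensor, was at 35.4 CPM in Yap/Taz KO replicate 1, 9.19 and 11.1 CPM in replicates 2 and 3, and 27.0 to 46.6 CPM in the controls. Gbp3, a guanylate-binding protein gene, was at 32.6, 5.01 and 7.04 CPM in the knockouts and 16.6 to 17.9 CPM in the controls. The markers of macrophages, cells that also express such genes, summed to 1387, 292 and 665 CPM in Yap/Taz KO replicates 1 to 3. In ctrl replicates 1 to 3 they summed to 3333, 585 and 752 CPM. The part of macrophages in this list was not tested.

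In the heat shock list 10 of 13 tested genes had a positive log2 fold change, as did 4231 of all 9037 genes, and the median was 0.44 (0.28 without ctrl replicate 1). In 4 of the 13 every knockout library was above every control, beside 5.59% of all genes. At an unadjusted p of 0.05 3 were higher and 0 lower, with and without ctrl replicate 1, where 2.33% and 2.89% of all genes were (3.28% and 3.73% without it). The 3 with all libraries were Hspa8, Dnajb1 (an HSP40 cochaperone, 0.76, SE 0.30) and Bag3, which couples HSP70 to autophagy, at 21.9, 32.7 and 37.6 against 46.8, 57.2 and 52.6 CPM. Hsp90aa1 and Hsp90ab1 did not part the groups (0.29, SE 0.34, and 0.08, SE 0.29). Of 14 p53 targets 3 were higher, again beside 2.33% of all genes, and 4 of 15 without ctrl replicate 1. Among the 3 were Mdm2, the ligase that degrades p53, at 20.8, 18.4 and 21.5 against 29.8, 43.9 and 39.3 CPM (0.90, SE 0.30), and Sesn2 (1.78, SE 0.66). In both, all controls were below all knockouts. Sesn2 had low counts, 17, 3 and 3 in ctrl replicates 1 to 3 and 18, 35 and 29 in Yap/Taz KO replicates 1 to 3. The clock list had 3 higher of 18, against the same 2.33%, and 2 of 19 without ctrl replicate 1. Among the 3 were Clock, at 20.4, 23.3 and 19.1 against 59.5, 30.5 and 36.7 CPM (1.01, SE 0.33), and the deadenylase gene Noct (1.49, SE 0.53). The sources used here do not give the time of day of collection.

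Immediate early genes had 4 lower and 0 higher of 18 at an unadjusted p of 0.05, where 2.89% and 2.33% of all genes were. With ctrl replicate 1 left out, 2 were lower and 2 higher. The 4 included Ier2, at 110, 156 and 154 against 78.0, 71.0 and 85.6 CPM (-0.84, SE 0.24), and Zfp36, which destabilises cytokine transcripts (-0.66, SE 0.23). The list median moved from -0.12 to 0.38 without ctrl replicate 1, where Fosb, Klf4 and Nr4a1 were among the members highest in that library (121, 81.3 and 21.9 CPM). Osgin1, an NRF2 target, stood at 121, 140 and 132 against 45.8, 70.6 and 77.0 CPM, without overlap (-1.02, SE 0.26; edgeR unadjusted p = 0.00201, adjusted p = 0.894; DESeq2 adjusted p = 0.344). In the acute phase list 1 of 28 was lower (3 without ctrl replicate 1), Saa3 (-1.01, SE 0.32), at 46.0, 33.6 and 33.9 against 19.4, 13.8 and 23.3 CPM. Division genes were scarcely expressed: of 31 G2 and mitosis genes 2 passed the filter on low counts, and of 32 S phase genes 12 did, with 0 at an unadjusted p of 0.05 in edgeR in either list, and 1 lower in each without ctrl replicate 1. The cytoskeleton list went from a median of -0.44 to 0.11 without ctrl replicate 1.

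**Figure D5:**
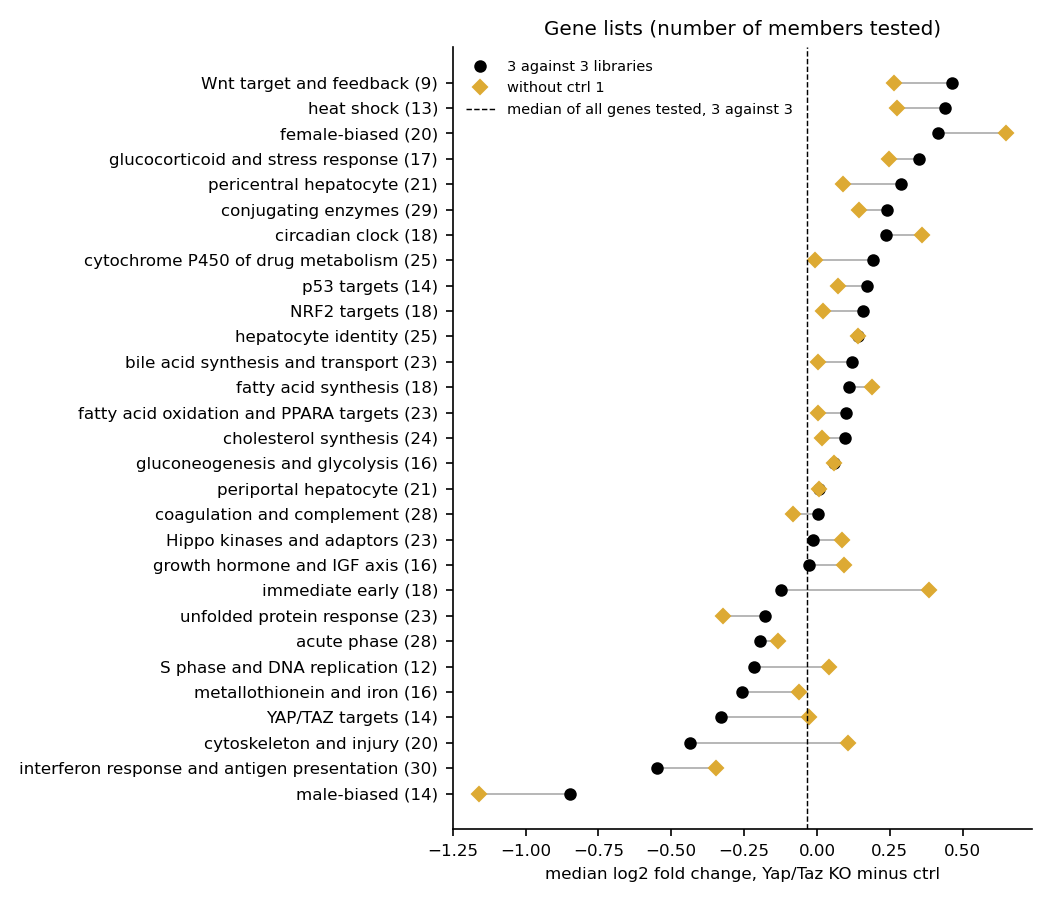
Median log2 fold change (Yap/Taz KO minus ctrl) of the tested members of 29 gene lists with at least 9 tested, cell type marker lists left out, with all 6 libraries (circles) and without ctrl replicate 1 (diamonds); the dashed line is the median of all genes. Of the lists drawn, male-biased genes (-0.85) and interferon genes (-0.55) lie lowest in both fits, while YAP/TAZ targets (-0.33) move to -0.03 and the cytoskeleton list changes sign without ctrl replicate 1.

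The same genes were read in the 6 injured libraries (CCl4 at 1 ml/kg, 48 h before collection), which share no sample with the uninjured comparison. There edgeR called 20 of 10540 genes (0.19%), and the biological coefficient of variation was 0.241. Yap1 stood at 60.5, 56.9 and 74.3 CPM in ctrl + CCl4 and at 16.9, 16.2 and 16.4 CPM in Yap/Taz KO + CCl4, a log2 fold change of -1.95 (SE 0.23, edgeR adjusted p = 0.000639). The difference between the effects after and before injury was -0.07 (SE 0.42, unadjusted p = 0.874). For Wwtr1 the values after injury were 38.2, 36.7 and 39.3 against 28.7, 22.6 and 28.2 CPM (-0.52, SE 0.23), and the difference of 0.87 (SE 0.45, unadjusted p = 0.0714) did not pass. Ccn1 gave -1.27 (SE 0.53) after injury, with 45.3 CPM in 1 control and 6.83 to 15.01 CPM in the other 5 libraries.

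Of the 472 genes with an unadjusted p under 0.05 before injury, 455 were tested after it and 182 (40%) had the same sign, beside 4179 of 8883 (47.0%) for all genes. Of the 13 DESeq2 genes 11 were tested and 7 had the same sign. Efna1 was lower again, at 41.9, 38.1 and 39.0 against 21.5, 27.7 and 18.2 CPM (-0.82, SE 0.24, edgeR adjusted p = 0.178). Hes1 was not, at 253, 202 and 237 against 181, 238 and 280 CPM (0.02, SE 0.19), nor was Depp1 (0.11, SE 0.24). A1cf, Ceacam1, Ildr2, Slc25a25 and Hspa8 gave 0.14 to 0.27 after injury, all with overlap between groups. Nipal1 had the opposite sign, at 44.4, 18.9 and 28.4 against 48.8, 56.1 and 55.0 CPM (0.81, SE 0.27).

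The difference between the effects was tested over all 12 libraries. In edgeR 0 of 10780 genes passed (0%; smallest adjusted p = 0.334), 846 had an unadjusted p under 0.05 (7.85%), and DESeq2 called 12. For Nipal1 the difference was 2.45 (SE 0.47, unadjusted p = 7.51e-05), for Hes1 1.40 (SE 0.38), for A1cf -1.17 (SE 0.36) and for Ceacam1 -1.26 (SE 0.39), none past the adjusted threshold in edgeR. Notum, a secreted Wnt inhibitor, stood before injury at 21.5, 54.2 and 38.8 against 24.6, 16.7 and 10.4 CPM, with overlap (-1.15, SE 0.42), and after injury at 7.46, 6.51 and 8.74 against 21.2, 30.5 and 39.0 CPM (1.99, SE 0.32, edgeR adjusted p = 0.0121). The difference of 3.11 (SE 0.55) had an adjusted p of 0.334 in edgeR. Of the 20 genes called after injury 14 were tested before it, 11 of these had the same sign there, and 1 of those 11, Yap1, also had an unadjusted p under 0.05.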

How the data were processed

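RNA was measured in sorted mouse hepatocytes; the 6 uninjured libraries were compared, and the 6 injured ones gave values of the same genes. The authors deposited 1 table of read counts by gene symbol; from its values, these are raw and not scaled between libraries. Per the submitters' processing notes, the tools were STAR 2.6.1d, cutadapt and FastQC, and GRCm38 and mm10 were the builds, with no order given. For the counter, annotation, strand setting and use of molecular identifiers the sources used here give nothing, so reads of near-identical genes (Mup, Cyp2b, Sult2a and haemoglobin families, Ugt1a5) may be split. Of 37141 gene rows 20314 held no count in the 6 libraries.

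The test was edgeR 4.0.16 (R 4.3.3): filterByExpr (minimum count 10, total 15) on the libraries fitted, TMM, 1 coefficient per group, robust quasi-likelihood F test, Benjamini-Hochberg adjustment at 0.05. CPM used the factors of each 6-library fit. Alternatives were RLE factors, library totals, no filter or a minimum of 5 CPM, DESeq2 1.42.0, limma-voom (limma 3.58.1) with and without quality weights, robust estimation off, a replicate block, fits of all samples, and leaving out each library; leaving out ctrl replicate 1 and Yap/Taz KO replicate 1 together was chosen after seeing the data, as both hold pancreatic transcripts. Scripts were tested on simulated data. Positions are from GENCODE M21 and promoters from RefSeq.

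The members, the gene lists (43, of which 32 are pathways) and the tests were chosen with earlier results of these data known. Genes were named by a rule: Yap1, Wwtr1, Ccn1, Ccn2, Ankrd1 and Amotl2; every gene called in edgeR with or without ctrl replicate 1; the 6 largest rises and falls among genes whose groups do not overlap, with a mean of 50 CPM or more in either; the 2 members of each pathway list with the smallest p and no overlap; and the 2 most abundant of each marker list. Other genes named, those called by DESeq2 among them, were chosen after their values were seen. Lists are described by counts and medians and were not tested.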

Additional observations from a re-analysis of the deposited data

How the results depend on the processing

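The number of genes called in uninjured hepatocytes was 0 in edgeR, 13 in DESeq2 and 27 without the low-count filter, and 0 under RLE factors, library totals, the 5 CPM filter, limma-voom with and without quality weights, robust estimation off, the fit of all 12 samples and, added after seeing the data, without ctrl replicate 1 and Yap/Taz KO replicate 1 together (558 at an unadjusted p of 0.05). Leaving out 1 library gave 0 to 1, the 1 without ctrl replicate 1, and 249 (without Yap/Taz KO replicate 2) to 693 (without ctrl replicate 2) genes at an unadjusted p of 0.05. Without ctrl replicate 1 the count was 1 in edgeR, 57 without the filter, 16 in DESeq2 and 2 in the fit of the other 11 samples; leaving out 1 more library gave 0 to 5, the 0 without ctrl replicate 3 or any 1 of the knockouts and the 5 without ctrl replicate 2, where the lone control is assumed to vary like the knockouts. In the injured libraries 20 genes were called, 241 without the filter, 106 in DESeq2, 2 in limma-voom and 2 with quality weights, 5 with robust estimation off, 0 in the fit of all 12 samples, and 2 to 30 without 1 library (2 without Yap/Taz KO + CCl4 replicate 2, 13 without ctrl + CCl4 replicate 1 or 2). For the difference between injury states the counts were 0 in edgeR, 37 without the filter, 12 in DESeq2, and 0 to 1 without 1 library (1 without ctrl replicate 1, and 1 without ctrl replicate 2). The cause of these shifts was not tested.

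The replicate numbers were not shown to pair the samples: deviations of same-numbered libraries correlated at 0.347, 0.262 and -0.027 before injury and at -0.037, -0.051 and -0.098 after it, and not every library correlated best with its own number. With the replicate number as a block, 0 genes were called before injury (628 at an unadjusted p of 0.05), 45 without ctrl replicate 1, where Yap/Taz KO replicate 1 has no partner, 67 after injury and 0 for the difference.

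Of 56 genes followed singly, 55 kept their sign in every setting run. Most of the 56 were picked for their values in these same libraries, so refits could hardly turn their signs. Amotl2, at -0.28, ranged from -0.49 (without Yap/Taz KO replicate 3) to 0.16 (without ctrl replicate 1 and Yap/Taz KO replicate 1). Beyond the threshold at 0.05, 13 of the 56 passed in DESeq2, 18 without the low-count filter and 1 (Mup17) without ctrl replicate 1. Every DESeq2 call was put in the set, so the count of 13 was fixed in advance. Depth limits Ccn2 and Ankrd1: Ccn2 had 1 to 16 counts in 5 libraries and Ankrd1 0 to 12 in all 6.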
